A study of Mus musculus with 12 samples.

Results

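A set of 41 genes of glucose use was followed in kidney epithelial cells that lack Pkd1 or Pkd2, the genes mutated in autosomal dominant polycystic kidney disease. The set holds 41 of the 47642 genes listed in the table of normalized read counts. Its members were chosen by name for their roles in glucose uptake, glycolysis, lactate production and transport, pyruvate oxidation and the response to low oxygen. Earlier results of these data were known when the members were chosen. All 41 symbols matched 1 row each through their Ensembl identifiers. The cells are mIMCD3, an immortalized epithelial line from the inner medullary collecting duct of the mouse, and their RNA was sequenced in 12 libraries. Wild-type (Wt) cells, a Pkd1-/- line made with CRISPR and a Pkd2-/- line made with TALEN gave 4 libraries each. The deletions remove the whole Pkd1 gene on both alleles in the first line and several exons of Pkd2 in the second. All 3 genotypes share the parental line, the medium and the harvest 4 days after full confluency, and no drug or low-oxygen treatment is named in the labels. Each mutant is 1 clone and its 4 libraries are dishes of that clone, so every p-value below measures the spread between dishes and not between clones.

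Glycolysis splits glucose into pyruvate in the cytosol and yields a little ATP without oxygen. Lactate dehydrogenase then turns pyruvate into lactate, which leaves the cell with a proton through monocarboxylate transporters, or pyruvate dehydrogenase feeds it into the mitochondrial citric acid cycle. Many of these genes are targets of the hypoxia-inducible factors, which prolyl hydroxylases and the VHL protein hold low when oxygen is present, and a shift towards glycolysis has been described in polycystic kidney disease.

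In Pkd1-/- cells the enzyme genes from glucose-6-phosphate to lactate were mostly higher than in Wt, and in Pkd2-/- cells they were mostly lower. A few members moved much further than these enzymes. The lactate exporter gene Slc16a3 was 24.2-fold higher in Pkd1-/- and 8.13-fold higher in Pkd2-/- cells, while Ldhb was 2.58-fold and 7.78-fold lower. Slc16a1, the gene of another lactate carrier, was 2.19-fold higher in Pkd2-/- cells, and the oxygen sensor gene Egln3 was 6.85-fold lower in Pkd2-/- cells. Of the 41 members, 39 averaged at least 1 normalized count and entered the test, which was limma on log2(normalized count + 1) with p-values adjusted over all 18552 genes tested. Fold changes are on that scale, which understates the change of genes with few counts. At an adjusted p under 0.05, 28 of 39 members were called in Pkd1-/- against Wt, 21 higher and 7 lower, where 27.1% of all genes tested were called (13.6% higher and 13.5% lower). In Pkd2-/- against Wt 32 of 39 were called, 8 higher and 24 lower, where 42.3% of all genes were called (20.0% higher and 22.3% lower). Between the mutants 34 of 39 were called in Pkd2-/- against Pkd1-/-, 7 higher and 27 lower, against 46.3% of all genes (21.9% higher and 24.3% lower). Counted by library, 20 members had all 4 Pkd1-/- libraries above all 4 Wt libraries and 6 had them below, as did 13.5% and 13.6% of all genes. For Pkd2-/- against Wt these were 7 above and 22 below (17.4% and 19.8% of all genes). All shares of all genes include genes with few counts, for which small changes pass less easily than for the abundant members. The shares were not matched for abundance.

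With a log2 fold change of at least 1 added to the threshold, 5 members were called in Pkd1-/- against Wt (6.24% of all genes tested), 4 higher and 1 lower. In Pkd2-/- against Wt 8 members were called (9.62% of all genes), 3 higher and 5 lower. Between the mutants 14 were called (11.8% of all genes), 2 higher and 12 lower in Pkd2-/- cells. The median log2 fold change of the 39 members was 0.24 in Pkd1-/- and -0.30 in Pkd2-/- against Wt, beside 0.011 and -0.0064 over all genes tested. The comparisons with Wt share the same 4 Wt libraries. Slc2a12, a glucose transporter gene, and Fbp1, the gluconeogenic fructose-1,6-bisphosphatase gene of the proximal tubule, were listed at 0 in all 12 libraries, which allows up to 3 counts per library. Here and elsewhere, fewer cells of a kind and less RNA per cell cannot be told apart in RNA from whole dishes.

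**Figure D1:**
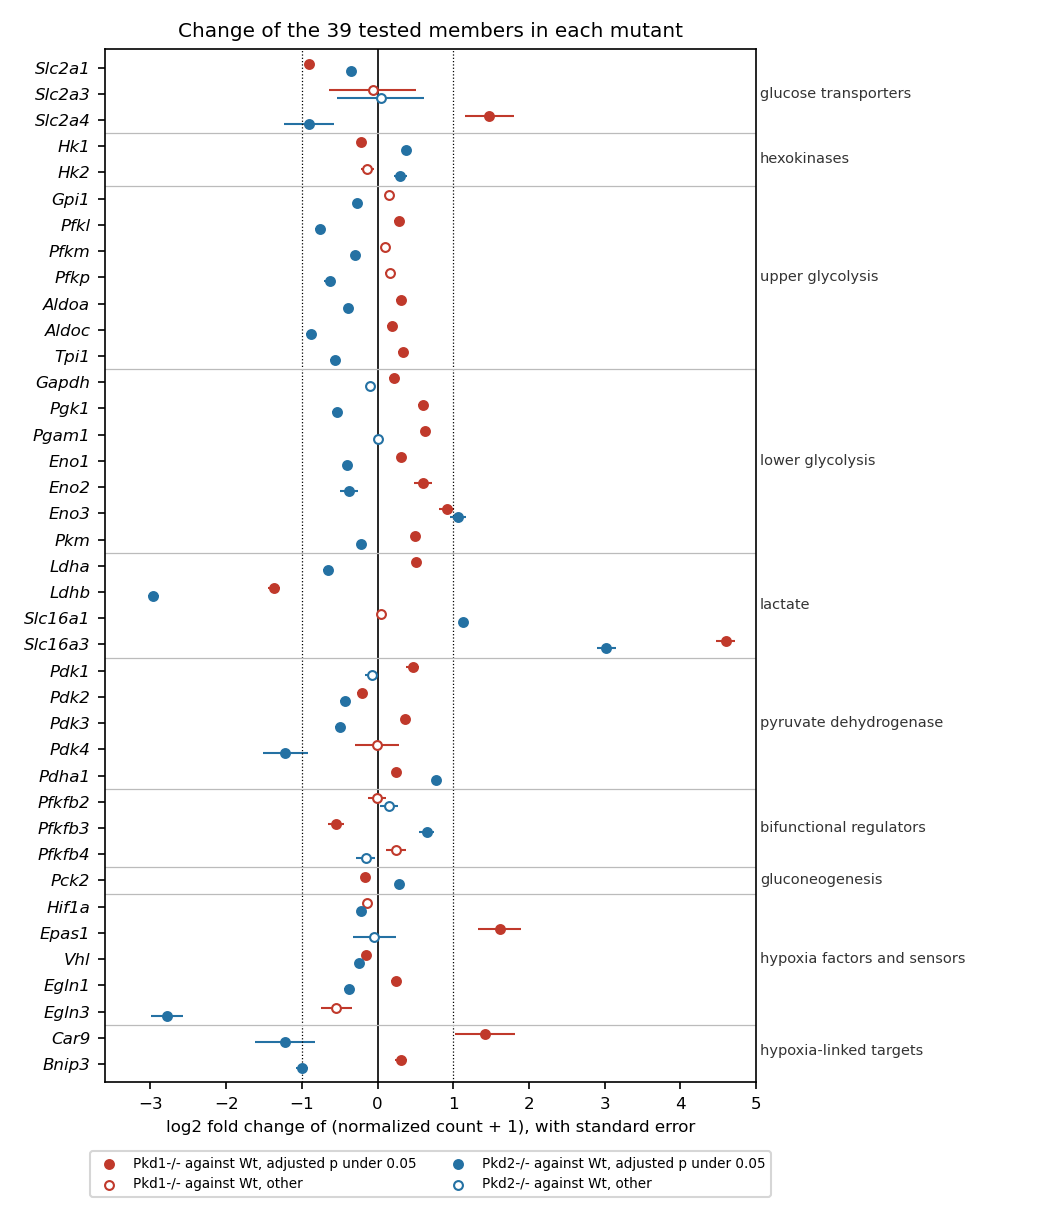
Log2 fold change of log2(normalized count + 1) against Wt for the 39 tested members (x axis), ordered by role, with bars of 1 standard error, Pkd1-/- in red and Pkd2-/- in blue, filled where the adjusted p was under 0.05 and with dotted lines at a log2 fold change of 1 in either direction. The red points of the glycolytic enzymes from Gpi1 to Pkm lie to the right of 0, and the blue points to the left except those of Pgam1 at 0.01 and Eno3 at 1.06.

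Library totals were 25966273 to 28027792 normalized counts, with all Pkd2-/- libraries, at 27197060 or more, above the others, at 26859930 or less. The reads on genes behind these totals were estimated at 23194317 to 30335543 per library. Pkd1 had 682 to 883 normalized counts in Wt, 30 to 49 in Pkd1-/- and 1057 to 1492 in Pkd2-/- libraries. Pkd2 counts, at 3438 to 4467 in Wt and 3855 to 4135 in Pkd2-/- libraries, cannot check the Pkd2-/- label because most exons remain. Of 17 collecting duct epithelium markers 13 averaged at least 10, among them Epcam, Cdh1, Pax8 and Hoxb7. The water channel gene Aqp2 was at 0 throughout, and Aqp3, Avpr2 and Scnn1b averaged 1.83, 0.25 and 2.17 normalized counts. Gata3 was lower in Pkd1-/- libraries (42 to 56) and higher in Pkd2-/- libraries (294 to 430) than in Wt (176 to 248). Scnn1g was lower in each mutant, at 876 to 988 in Wt, 249 to 347 in Pkd1-/- and 243 to 265 in Pkd2-/- libraries. Among markers of other cells, the 4 intercalated cell markers summed to 29 to 82 in Wt, 437 to 547 in Pkd1-/- and 3 to 5 in Pkd2-/- libraries, with Atp6v1b1 at 29 to 76, 437 to 544 and 0 to 2 and the defining factor Foxi1 at 0 in all libraries. The 4 proximal tubule markers, of which 3 were at 0 in all libraries and Lrp2 gave the sum, reached 474 to 555, 25 to 63 and 738 to 1217. Fibroblast and endothelial markers summed to at most 75 and 9, and the 3 leukocyte markers, nearly all Csf1r, to 833 to 942, 381 to 587 and 668 to 774. The part of these markers in the results was not tested. Pkd1-/- replicate 3 had the highest value of its genotype for 13 of the 15 enzyme genes from Gpi1 to Pkm and Ldha. Without that library 25 members passed in Pkd1-/- against Wt, 20 higher and 5 lower.

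**Figure D2:**
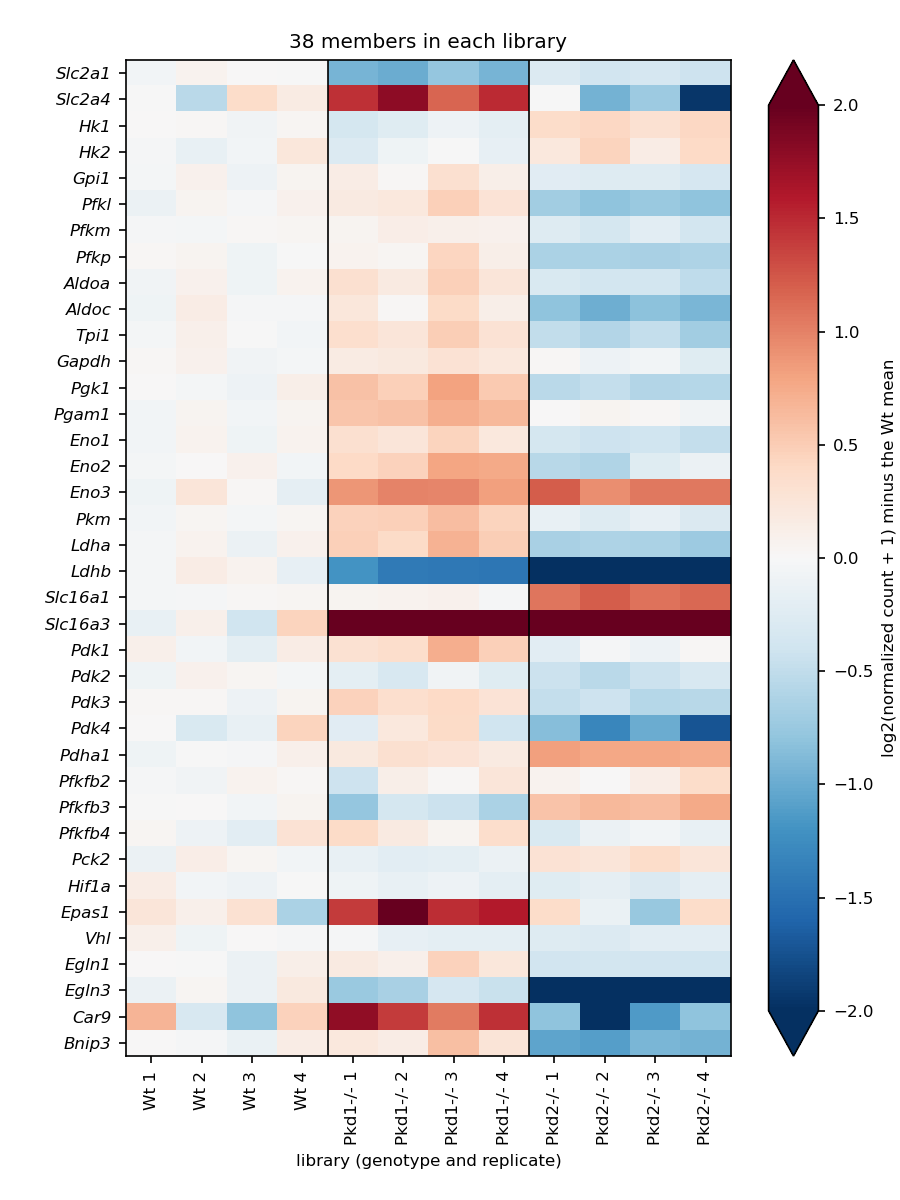
Colour gives log2(normalized count + 1) minus the mean of the 4 Wt libraries for the 38 members whose mean reached 10 normalized counts (rows, by role) in each of the 12 libraries (columns), with the scale ending at 2 in either direction. The 4 libraries of a genotype look alike in most rows, and Pkd1-/- replicate 3 is the darkest red of its genotype in most rows from Gpi1 to Ldha.

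Glucose enters these cells through facilitative transporters. Slc2a1 encodes GLUT1, the widespread basal transporter. Its Wt libraries had 6996, 7593, 7269 and 7184 normalized counts, the Pkd1-/- libraries 3807, 3651, 4253 and 3820, and the Pkd2-/- libraries 6019, 5577, 5747 and 5465. The 3 genotypes did not overlap, with Wt highest and Pkd1-/- lowest. The log2 fold change was -0.90 ± 0.05 (SE, adjusted p = 1.07e-10) in Pkd1-/- and -0.35 ± 0.05 (adjusted p = 1.53e-05) in Pkd2-/- cells, and Pkd2-/- cells were above Pkd1-/- cells by 0.56 (adjusted p = 3.19e-08). Slc2a4 encodes GLUT4, the insulin-responsive transporter of muscle and fat, and was low here. It had 22, 15, 29 and 25 normalized counts in Wt, 63, 79, 51 and 64 in Pkd1-/-, and 22, 11, 13 and 5 in Pkd2-/- libraries. All Pkd1-/- libraries lay above all Wt libraries (log2 fold change 1.48 ± 0.33, adjusted p = 2.04e-03), whereas the Pkd2-/- and Wt libraries overlapped. The log2 fold change of Slc2a4 in Pkd2-/- cells was -0.91 ± 0.33 with an adjusted p of 0.0327. That call was lost without Wt replicate 1 (adjusted p = 0.0583), replicate 3 (0.0973) or replicate 4 (0.0708), and without Pkd2-/- replicate 2 (0.0613) or replicate 4 (0.128, log2 fold change -0.56). Slc2a3, the GLUT3 gene of neurons, had at most 4 normalized counts in any library and passed no test, with log2 fold changes of -0.07 and 0.04.

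The hexokinases trap glucose in the cell as glucose-6-phosphate. Hk1, the constitutive form, had 3045 ± 105 normalized counts (SD, n = 4) in Wt, 2610 ± 186 in Pkd1-/- and 3953 ± 143 in Pkd2-/- cells. It fell in Pkd1-/- (log2 fold change -0.22, adjusted p = 3.08e-03) and rose in Pkd2-/- cells (0.38, adjusted p = 9.78e-06). Hk2, the inducible form, had 1286 ± 148, 1168 ± 93.3 and 1584 ± 161 normalized counts. It rose in Pkd2-/- cells (0.30, adjusted p = 6.30e-03), and its log2 fold change of -0.14 in Pkd1-/- cells did not pass (adjusted p = 0.264). Both hexokinase genes were higher in Pkd2-/- than in Pkd1-/- cells, by 0.60 and 0.44 on the log2 scale (adjusted p = 1.84e-08 and 2.40e-04).

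Upper glycolysis runs from Gpi1, glucose-6-phosphate isomerase, through phosphofructokinase and aldolase to Tpi1, triosephosphate isomerase. All 7 genes of these steps fell in Pkd2-/- cells, with a median log2 fold change of -0.56 and none of the Pkd2-/- libraries overlapping Wt (22.3% of all genes tested fell and 19.8% lay below Wt without overlap). In Pkd1-/- cells 4 of the 7 rose (Pfkl, Aldoa, Aldoc and Tpi1), with a median over the 7 of 0.19 (13.6% of all genes rose). Pfkl, the liver-type subunit of the rate-controlling phosphofructokinase, had 14497, 16218, 15458 and 16563 normalized counts in Wt, 17702, 18046, 21759 and 18872 in Pkd1-/-, and 9647, 9004, 9323 and 9007 in Pkd2-/- libraries. The genotypes stood apart, with a log2 fold change of 0.28 ± 0.06 (adjusted p = 1.47e-03) in Pkd1-/- and -0.76 ± 0.06 (adjusted p = 5.97e-09) in Pkd2-/- cells. The muscle and platelet subunits Pfkm and Pfkp fell in Pkd2-/- cells by 0.30 and 0.63 on the log2 scale, and their values in Pkd1-/- cells were 0.10 (adjusted p = 0.141) and 0.17 (adjusted p = 0.0828, and 0.0459 without Pkd1-/- replicate 2).

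Aldolase splits fructose-1,6-bisphosphate into the triose phosphates. Aldoc, the brain-type aldolase, had 3676, 4335, 3851 and 3845 normalized counts in Wt, 4568, 4001, 5127 and 4270 in Pkd1-/-, and 2237, 1993, 2214 and 2074 in Pkd2-/- libraries. The Pkd2-/- libraries lay far below Wt (log2 fold change -0.88 ± 0.07, adjusted p = 5.27e-09), while Pkd1-/- and Wt overlapped. The Aldoc change in Pkd1-/- cells, 0.19 with an adjusted p of 0.0479, lay at the threshold and was lost when any library was left out except Pkd1-/- replicate 2, Pkd1-/- replicate 4, Wt replicate 2 or Pkd2-/- replicate 4, with adjusted p-values of 0.0507 to 0.195. Aldoa, the main form, had 20842 ± 1290 normalized counts in Wt, and rose by 0.31 in Pkd1-/- (adjusted p = 1.13e-03) and fell by 0.38 in Pkd2-/- cells (adjusted p = 7.26e-05). Tpi1 changed by 0.33 (adjusted p = 2.56e-04) and -0.56 (adjusted p = 2.91e-07). Gpi1 fell by 0.27 in Pkd2-/- cells (adjusted p = 7.44e-04), and its 0.16 in Pkd1-/- cells had an adjusted p of 0.0511, which passed without Pkd1-/- replicate 2 (0.0199), Pkd2-/- replicate 4 (0.0429) or Wt replicate 2 (0.0340).

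Lower glycolysis yields ATP and pyruvate. All 7 of its members rose in Pkd1-/- cells, with a median log2 fold change of 0.60 and no overlap between Pkd1-/- and Wt libraries (13.6% of all genes tested rose and 13.5% lay above Wt without overlap). In Pkd2-/- cells, where 22.3% of all genes fell and 20.0% rose, 4 fell, Eno3 rose, and Gapdh (-0.10, adjusted p = 0.225) and Pgam1 (0.01, adjusted p = 0.944) did not pass. Pgk1, phosphoglycerate kinase on the X chromosome, had 8948 ± 579 normalized counts in Wt, 13580 ± 1402 in Pkd1-/- and 6152 ± 194 in Pkd2-/- cells (log2 fold changes 0.60 and -0.54, adjusted p = 5.42e-07 and 1.01e-06). Pkm, pyruvate kinase, changed by 0.50 (adjusted p = 5.20e-07) and -0.22 (adjusted p = 2.13e-03). Eno1, the common enolase, changed by 0.31 and -0.41 (adjusted p = 2.48e-04 and 5.38e-06). The neuronal form Eno2 changed by 0.60 (adjusted p = 7.91e-04) and -0.38 (adjusted p = 0.0166), the latter lost without Pkd2-/- replicate 1 (adjusted p = 0.0572) or replicate 2 (0.0655).

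Pgam1, phosphoglycerate mutase, rose by 0.63 in Pkd1-/- cells (adjusted p = 1.05e-08). Its 108 neighbours within 5 Mb on chromosome 19 moved by a median log2 fold change of 0.18 in Pkd1-/- and 0.30 in Pkd2-/- cells, and the part of this region in the Pgam1 values was not tested. Gapdh rose by 0.21 in Pkd1-/- cells (adjusted p = 0.0126), but reads of this gene are hard to assign. Of the 50-base words in its coding-gene transcripts, 58.4% also occurred in transcripts of other genes. These were mostly pseudogenes, at 215 of 226 pairs of gene and transcript type. The share was 68.0% for Pgk1, 49.5% for Eno1, 41.5% for Pgam1 and 23.7% for Pkm. Among other members it was 22.9% for Pfkfb2, 20.7% for Bnip3, 18.6% for Gpi1 and 10.4% for Ldha. Such shares do not give the number of reads lost, so the values of these genes are uncertain by an amount that was not tested. Gapdh averaged 1095 normalized counts over all libraries, against 27673 for Tpi1 and 36976 for Pkm, and the cause of this low level was not tested. The share of recurring words was 0.053% for Pfkl, and none of the words of Aldoc or Eno3 recurred elsewhere.

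Eno3, the muscle enolase gene on chromosome 11, went against the other enolases in Pkd2-/- cells. It had 130, 164, 140 and 121 normalized counts in Wt, 254, 275, 272 and 243 in Pkd1-/-, and 320, 264, 288 and 286 in Pkd2-/- libraries. Both mutants lay above every Wt library and overlapped each other. The log2 fold change was 0.91 ± 0.10 (adjusted p = 1.48e-06) in Pkd1-/- and 1.06 ± 0.10 (adjusted p = 1.00e-07) in Pkd2-/- cells, and the mutants differed by 0.15 (adjusted p = 0.265). Per kilobase of exon, with all annotated exons of a gene merged, Eno3 had 79.8 ± 10.7 (SD, n = 4) normalized counts in Wt. Eno1 had 2515 ± 132, so Eno3 stayed a minor form.

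The 15 enzyme genes from Gpi1 to Pkm together with Ldha made up 0.615%, 0.671%, 0.620% and 0.644% of all normalized counts in the Wt libraries. They made up 0.820%, 0.791%, 0.929% and 0.809% in Pkd1-/- and 0.470%, 0.442%, 0.465% and 0.417% in Pkd2-/- libraries. The genotypes did not overlap, with means of 0.837% ± 0.062 (SD, n = 4) in Pkd1-/-, 0.637% ± 0.026 in Wt and 0.448% ± 0.024 in Pkd2-/- cells. Without Pkd1-/- replicate 3, the highest of its genotype, the Pkd1-/- mean was 0.807% ± 0.015 (n = 3). In this sum long and abundant transcripts weigh most. Of the 15 genes, 12 rose and 0 fell in Pkd1-/- cells, where 13.6% of all genes tested rose. In Pkd2-/- cells 12 fell and 1 rose, where 22.3% of all genes fell. Pkd2-/- cells were below Pkd1-/- cells in 14 of the 15, where 24.3% of all genes were lower. Eno3 was the exception. Without Pkd1-/- replicate 3 the log2 fold changes in Pkd1-/- cells were 0.22 for Pfkl, 0.25 for Aldoa, 0.28 for Tpi1, 0.53 for Pgk1, 0.60 for Pgam1, 0.26 for Eno1, 0.46 for Pkm and 0.45 for Ldha. Of the 12 that rose, Aldoc was the one that no longer passed without it (0.12, adjusted p = 0.195).

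**Figure D3:**
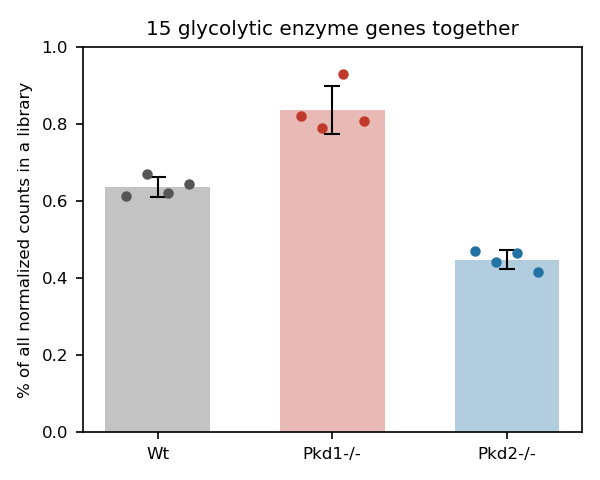
Percentage of all normalized counts (y axis) that fell on the 15 enzyme genes from Gpi1 to Pkm and Ldha, with each library as a point, the mean of 4 libraries as a bar and 1 SD as the error bar. The Pkd1-/- libraries lie at 0.791% to 0.929%, above Wt at 0.615% to 0.671%, and the Pkd2-/- libraries below at 0.417% to 0.470%.

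Lactate dehydrogenase is a tetramer of A and B chains, the A chain favouring the step from pyruvate to lactate and the B chain being abundant in oxidative tissue such as heart. Ldha (ENSMUSG00000063229.14, chr7:46841475-46855627, GRCm38) had 21762, 23442, 20612 and 23724 normalized counts in Wt, 30984, 29296, 36103 and 31563 in Pkd1-/-, and 14276, 14582, 14391 and 13532 in Pkd2-/- libraries. The genotypes did not overlap. Ldha rose by 0.51 ± 0.06 (adjusted p = 2.70e-06) in Pkd1-/- cells and fell by 0.66 (SE 0.06, adjusted p = 5.29e-08) in Pkd2-/- cells. Ldhb (ENSMUSG00000030246.11, chr6:142490249-142507957) had 1679, 1916, 1821 and 1538 normalized counts in Wt, 757, 646, 645 and 638 in Pkd1-/-, and 218, 229, 228 and 213 in Pkd2-/- libraries. It fell in each mutant, further in Pkd2-/- cells, by log2 fold changes of -1.37 ± 0.08 (adjusted p = 9.56e-11) and -2.96 ± 0.08 (adjusted p = 6.18e-16), and -1.59 between the mutants (adjusted p = 3.12e-12). Its 34 neighbours within 5 Mb had medians of -0.01 and -0.05. Of its 1615 words of 50 bases, 339 recurred in 1 other gene, a pseudogene.

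The ratio of Ldhb to Ldha in a library does not depend on how the library was scaled. It was 0.0772, 0.0818, 0.0884 and 0.0649 in Wt, 0.0245, 0.0221, 0.0179 and 0.0202 in Pkd1-/-, and 0.0153, 0.0158, 0.0159 and 0.0158 in Pkd2-/- libraries. No library of one genotype reached into another. The mean log2 ratio was lower than in Wt by 1.88 in Pkd1-/- and by 2.30 in Pkd2-/- cells, each with a two-sided exact permutation p of 0.0286, the smallest that 4 against 4 can give. It was lower in Pkd2-/- than in Pkd1-/- cells by 0.42 (exact permutation p = 0.0286). Without any one of the Pkd2-/- libraries the groups stayed apart and the log2 ratio differed by -0.41 to -0.43. The exact permutation p was then 0.0571, where 3 libraries against 4 can give 0.0286, so another split was at least as far apart. Per kilobase of exon, Ldhb had 1107 ± 105 (SD, n = 4) normalized counts in Wt and 141 ± 4.96 in Pkd2-/- cells, against 6763 ± 443 and 4289 ± 139 for Ldha.

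Lactate leaves or enters the cell through proton-coupled monocarboxylate transporters. Slc16a3 (ENSMUSG00000025161.16, chr11:120948480-120960868) encodes MCT4, the exporter of strongly glycolytic cells. It had 82, 98, 69 and 124 normalized counts in Wt, 2032, 2023, 2638 and 2284 in Pkd1-/-, and 753, 733, 756 and 747 in Pkd2-/- libraries. The lowest mutant library, with 733, lay far above the highest Wt library, with 124, and the mutants did not overlap. The log2 fold change was 4.60 ± 0.13 (adjusted p = 1.07e-14) in Pkd1-/- and 3.02 ± 0.13 (adjusted p = 9.67e-13) in Pkd2-/- cells, and Pkd2-/- cells were below Pkd1-/- cells by 1.58 on the log2 scale (adjusted p = 7.42e-09). Without Pkd1-/- replicate 3 the change in Pkd1-/- cells was 4.52. Among the 39 members this gene had the largest change in either mutant. Its 127 neighbours within 5 Mb had medians of 0.08 and -0.01.

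Slc16a1 (ENSMUSG00000032902.1, chr3:104638668-104658462) encodes MCT1, the widespread carrier of lactate in both directions. It had 4921, 4949, 5125 and 5147 normalized counts in Wt, 5236, 5293, 5327 and 4932 in Pkd1-/-, and 10534, 11630, 10704 and 11181 in Pkd2-/- libraries. Wt and Pkd1-/- overlapped (log2 fold change 0.05 ± 0.04, adjusted p = 0.512), and every Pkd2-/- library lay above both (1.13 ± 0.04 against Wt, adjusted p = 2.66e-13, and 1.08 against Pkd1-/-, adjusted p = 3.03e-13). Per kilobase of merged annotated exons (4426 bases for Slc16a1 and 5318 for Slc16a3), Slc16a1 was the more abundant of the pair in every genotype. In Wt it had 1138 ± 26.4 (SD, n = 4) normalized counts against 17.5 ± 4.45 for Slc16a3. In Pkd1-/- cells these were 1174 ± 40.8 and 422 ± 54.4, and in Pkd2-/- cells 2488 ± 112 and 141 ± 1.92. The lengths of the transcripts expressed were not measured, so these values depend on the merged lengths. The ratio of Slc16a3 to Slc16a1 counts was 0.0137 to 0.0243 in Wt, 0.382 to 0.495 in Pkd1-/- and 0.0631 to 0.0716 in Pkd2-/- libraries, without overlap (exact permutation p = 0.0286 for each pair of genotypes).

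**Figure D4:**
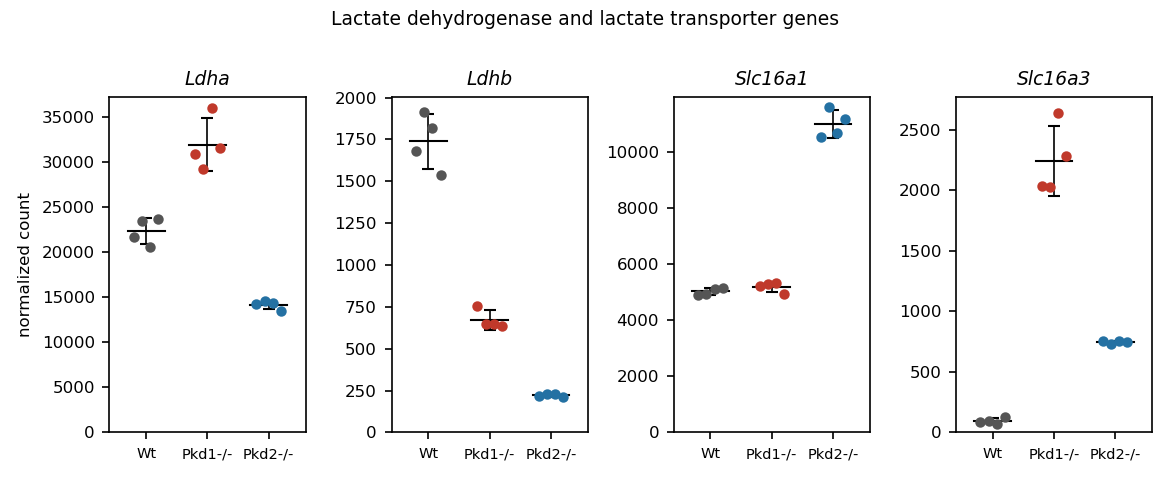
Normalized counts (y axes, each starting at 0) of the lactate dehydrogenase genes Ldha and Ldhb and the lactate transporter genes Slc16a1 and Slc16a3 in each library, with a line at the mean of 4 libraries and a bar of 1 SD. Ldha is highest in Pkd1-/- and lowest in Pkd2-/-, Ldhb falls from Wt to Pkd1-/- to Pkd2-/-, Slc16a1 stands out only in Pkd2-/-, and Slc16a3 is above Wt in every mutant library.

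The other isozyme pairs were compared in the same way, 8 pairs and 24 tests in all, in which the smallest p of 0.0286 became 0.0572 after Benjamini-Hochberg adjustment. The ratio of Aldoc to Aldoa was lower in the mutants, by 0.12 in Pkd1-/- and by 0.50 in Pkd2-/- cells as log2 ratios (exact permutation p = 0.0286 each). In Pkd1-/- cells the groups nearly touched, with a highest ratio of 0.1764 (replicate 3) against a lowest of 0.1765 in Wt (replicate 4). Without any one of the Pkd1-/- libraries the difference between Pkd1-/- and Wt was -0.11 to -0.13 with no overlap. Its exact permutation p was then 0.0571, where 3 libraries against 4 can give 0.0286. Pfkm to Pfkl was higher in Pkd2-/- than in Wt by 0.46 (p = 0.0286, exact permutation test), with overlapping libraries in Pkd1-/- cells (-0.19, exact permutation p = 0.0571). Hk2 to Hk1, Eno2 to Eno1, Pfkp to Pfkl and Slc2a3 to Slc2a1 overlapped between Wt and each mutant. An exact p of 0.0286 was reached for Pfkm to Pfkl in Pkd1-/- cells without Pkd1-/- replicate 2, for Hk2 to Hk1 in Pkd1-/- cells without Wt replicate 4 and for Pfkp to Pfkl in Pkd2-/- cells without Wt replicate 1.

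Promoters of the pair of lactate transporter genes are shown because both hold the hypoxia response core and passed the adjusted p and fold thresholds with large changes. The letters searched were ACGTG, read on both strands (CACGT on the other), from 250 bases before to 50 bases after each RefSeq start site of GRCm38.p6. The palindrome CACGTG counts as 2 overlapping matches. Promoter entries were found for 38 of the 41 members, all except Slc2a3, Slc2a4 and Epas1. ACGTG was present in a promoter of 22 of the 38 members (57.9%), against 5886 of 27025 genes (21.8%), and by promoter in 26 of 54 (48.1%) against 19.6% of 32851. The related core GCGTG was present in 23 of 38 members (60.5%) and in 35.2% of all genes. The members were chosen partly for roles in the response to low oxygen, and the promoters compared were not matched for base composition. A match describes letters only and says nothing of binding. The 250 bases before the start follow, for Slc16a3 from chr11:120948817-120949066 (plus strand), with matches starting 27 and 14 bases before the start, and for Slc16a1 from chr3:104638414-104638663 (plus strand), with a CACGTG 200 bases before it. Another Slc16a1 match, starting 20 bases after the start, lies outside the printed stretch. Matches are in capitals and the 5′ end is at the left.
Slc16a3: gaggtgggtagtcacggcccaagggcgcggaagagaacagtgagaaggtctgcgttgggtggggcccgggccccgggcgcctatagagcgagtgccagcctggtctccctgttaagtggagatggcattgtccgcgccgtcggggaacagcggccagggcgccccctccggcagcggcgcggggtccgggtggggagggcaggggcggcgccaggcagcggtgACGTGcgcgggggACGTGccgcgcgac
Slc16a1: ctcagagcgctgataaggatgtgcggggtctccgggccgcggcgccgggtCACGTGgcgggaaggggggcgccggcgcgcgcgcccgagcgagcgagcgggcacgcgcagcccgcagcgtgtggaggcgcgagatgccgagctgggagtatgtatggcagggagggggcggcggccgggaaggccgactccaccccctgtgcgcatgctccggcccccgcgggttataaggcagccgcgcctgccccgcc

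Pyruvate dehydrogenase takes pyruvate into the mitochondrial cycle and its kinases switch it off. Pdha1, the X-linked catalytic subunit, had 668, 705, 694 and 760 normalized counts in Wt, 806, 886, 856 and 804 in Pkd1-/-, and 1251, 1205, 1208 and 1182 in Pkd2-/- libraries. The genotypes did not overlap and Pkd2-/- was highest, at a log2 fold change of 0.25 ± 0.06 (adjusted p = 2.86e-03) in Pkd1-/- and 0.78 ± 0.06 (adjusted p = 2.09e-09) in Pkd2-/- cells. The 4 kinase genes differed from one another. Pdk1 rose in Pkd1-/- cells (0.46, adjusted p = 3.91e-04) and had -0.08 in Pkd2-/- cells (adjusted p = 0.528), beside a median of 0.27 over 61 neighbours in that mutant. Pdk3 rose by 0.37 in Pkd1-/- (adjusted p = 6.16e-05) and fell by 0.50 in Pkd2-/- cells (adjusted p = 7.49e-07). Pdk2 fell in Pkd2-/- cells (-0.43, adjusted p = 1.91e-05). Its -0.21 in Pkd1-/- cells (adjusted p = 0.0177) was lost without Pkd1-/- replicate 2 (adjusted p = 0.0735), Wt replicate 2 (0.0591) or Wt replicate 3 (0.0518).

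Pdk4, the kinase induced by fasting, was low. It had 19, 15, 17 and 26 normalized counts in Wt, 16, 22, 25 and 14 in Pkd1-/-, and 10, 7, 9 and 5 in Pkd2-/- libraries. Wt and Pkd1-/- overlapped (log2 fold change -0.01, adjusted p = 0.994), and all Pkd2-/- libraries lay below (-1.22 ± 0.30, adjusted p = 2.45e-03). At such counts the fold change is imprecise, and with a pseudocount of 5 it was -0.92.

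The bifunctional PFKFB enzymes set the level of fructose-2,6-bisphosphate, the strongest activator of phosphofructokinase. Pfkfb3, the form that favours its synthesis, had 196, 198, 191 and 205 normalized counts in Wt, 115, 154, 146 and 127 in Pkd1-/-, and 294, 310, 303 and 334 in Pkd2-/- libraries. The genotypes did not overlap, and the order was the reverse of that of Pfkl. The log2 fold change was -0.55 ± 0.10 (adjusted p = 3.47e-04) in Pkd1-/- and 0.65 ± 0.10 (adjusted p = 3.28e-05) in Pkd2-/- cells, where its 26 neighbours on chromosome 2 had a median of 0.24. Pfkfb2 and Pfkfb4 overlapped between Wt and each mutant, at -0.01 and 0.24 on the log2 scale in Pkd1-/- and 0.15 and -0.16 in Pkd2-/- cells (adjusted p = 0.971, 0.178, 0.362 and 0.363). In gluconeogenesis, the mitochondrial carboxykinase gene Pck2 had 2441 ± 195 normalized counts (SD, n = 4) in Wt, 2166 ± 63.4 in Pkd1-/- and 2972 ± 124 in Pkd2-/- cells. It rose in Pkd2-/- cells (0.29, adjusted p = 3.06e-04). Its -0.17 in Pkd1-/- cells (adjusted p = 0.0281) was lost without Pkd1-/- replicate 2 (adjusted p = 0.0806) or 3 (0.0755) and without Wt replicate 2 (0.106) or 3 (0.0764).

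Hypoxia-inducible factors are pairs of an oxygen-labile alpha subunit and a stable partner. Hif1a, the most widespread alpha subunit, is regulated mainly through its protein and had 9098 ± 717 normalized counts (SD, n = 4) in Wt, 8274 ± 289 in Pkd1-/- and 7774 ± 284 in Pkd2-/- cells. Its messenger fell in Pkd2-/- cells (-0.22, adjusted p = 1.80e-03), and the -0.13 in Pkd1-/- cells passed only without Wt replicate 3 (adjusted p = 0.0672, and 0.0372 without it). Epas1, the gene of HIF-2 alpha, was low, with 21, 19, 22 and 11 normalized counts in Wt, 48, 74, 51 and 55 in Pkd1-/-, and 23, 16, 10 and 23 in Pkd2-/- libraries. All Pkd1-/- libraries lay above the others (log2 fold change 1.62 ± 0.29 against Wt, adjusted p = 2.50e-04), while Pkd2-/- and Wt overlapped (-0.04, adjusted p = 0.924). Vhl, the ubiquitin ligase subunit that marks these factors for destruction, fell by 0.24 in Pkd2-/- cells (adjusted p = 8.32e-04). Its -0.15 in Pkd1-/- cells had an adjusted p of 0.0435, which was lost without any single Wt replicate except replicate 2, without any single Pkd1-/- replicate except replicate 1, and without Pkd2-/- replicate 1 or 2 (0.0525 to 0.137).

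The prolyl hydroxylases are the oxygen sensors, and Egln3 is also a target of the factors it controls. Egln3 had 185, 206, 184 and 231 normalized counts in Wt, 120, 128, 158 and 147 in Pkd1-/-, and 20, 49, 22 and 30 in Pkd2-/- libraries. The 3 genotypes did not overlap. The log2 fold change was -2.78 ± 0.21 (adjusted p = 3.17e-09) in Pkd2-/- cells, and -0.54 ± 0.21 in Pkd1-/- cells with an adjusted p of 0.0635. Without Pkd2-/- replicate 1 or 2, which enter the shared estimate of spread, the latter had an adjusted p of 0.0414 or 0.0117, and in a model of Wt and Pkd1-/- libraries alone 2.46e-03. Egln1, the main oxygen sensor, had 4087 ± 283 normalized counts (SD, n = 4) in Wt, 4841 ± 522 in Pkd1-/- and 3132 ± 24.1 in Pkd2-/- cells, a rise of 0.24 (adjusted p = 7.97e-03) and a fall of 0.38 (adjusted p = 7.93e-05) on the log2 scale.

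Car9 and Bnip3 are well-known targets of these factors. Car9, carbonic anhydrase 9, an enzyme at the cell surface that handles acid, was near the limit of detection with 13, 6, 4 and 11 normalized counts in Wt, 29, 22, 17 and 23 in Pkd1-/-, and 4, 1, 3 and 4 in Pkd2-/- libraries. All Pkd1-/- libraries lay above Wt (log2 fold change 1.42 ± 0.40, adjusted p = 0.0112), and the Pkd2-/- libraries touched the lowest Wt library (-1.22 ± 0.40, adjusted p = 0.0181). The Pkd2-/- call was lost without Pkd2-/- replicate 2 (adjusted p = 0.0699), Wt replicate 1 (0.0684) or Wt replicate 4 (0.0566), and its log2 fold change was -0.72 with a pseudocount of 5. Bnip3, a mitochondrial protein of mitophagy, had 3449, 3378, 3116 and 3772 normalized counts in Wt, 3956, 3804, 5196 and 4099 in Pkd1-/-, and 1653, 1602, 1819 and 1770 in Pkd2-/- libraries. The genotypes did not overlap, with a rise of 0.31 ± 0.08 (adjusted p = 7.62e-03) in Pkd1-/- and a fall of 1.00 (SE 0.08, adjusted p = 8.51e-09) in Pkd2-/- cells. Without Pkd1-/- replicate 3 the rise was 0.21.

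**Figure D5:**
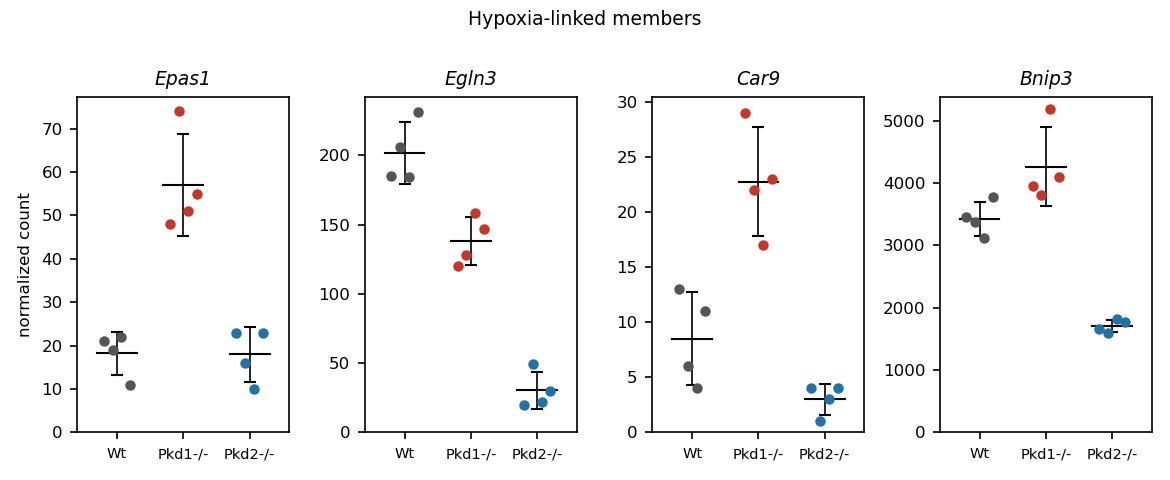
Normalized counts (y axes, each starting at 0) of Epas1, Egln3, Car9 and Bnip3 in each library, with a line at the mean of 4 libraries and a bar of 1 SD. Epas1 and Car9 are highest in Pkd1-/- libraries at 48 to 74 and 17 to 29, and Egln3 and Bnip3 are lowest in Pkd2-/- libraries at 20 to 49 and 1602 to 1819.

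Promoters of Egln3 and Car9 are printed too. With Slc16a3 and Slc16a1, they had the largest changes in either mutant among members that hold the core and passed the adjusted p and fold thresholds. Bnip3 also holds the core and fell by 1.00 on the log2 scale in Pkd2-/- cells, a smaller change, and is not printed. The Egln3 sequence is chr12:54203875-54204124 (minus strand), with ACGTG starting 229 bases before the start, and the Car9 sequence is chr4:43506776-43507025 (plus strand), with a match on the other strand 18 bases before it.
Egln3: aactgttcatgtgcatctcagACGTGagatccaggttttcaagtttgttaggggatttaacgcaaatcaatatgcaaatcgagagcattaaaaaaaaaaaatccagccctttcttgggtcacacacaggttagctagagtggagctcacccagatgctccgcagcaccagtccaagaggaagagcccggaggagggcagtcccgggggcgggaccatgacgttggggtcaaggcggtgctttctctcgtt
Car9: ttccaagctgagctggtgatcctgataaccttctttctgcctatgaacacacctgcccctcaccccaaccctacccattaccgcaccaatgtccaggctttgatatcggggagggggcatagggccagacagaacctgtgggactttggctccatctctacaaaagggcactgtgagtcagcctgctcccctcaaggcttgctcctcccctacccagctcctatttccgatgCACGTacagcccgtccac

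Another 80 genes of the same pathways were listed, 67 of them tested. In Pkd1-/- against Wt 24 of 67 were called, 19 higher and 5 lower, and in Pkd2-/- against Wt 42, 13 higher and 29 lower (27.1% and 42.3% of all genes, as above). The median log2 fold change was 0.10 and -0.15. Among 23 hypoxia-responsive genes tested, 9 rose and 2 fell in Pkd1-/- cells and 6 rose and 13 fell in Pkd2-/- cells, with medians of 0.14 and -0.38. Of all genes tested, 13.6% rose and 13.5% fell in Pkd1-/- and 20.0% rose and 22.3% fell in Pkd2-/- cells. The furthest fall was that of Angptl4, a lipoprotein lipase inhibitor, with 88, 152, 106 and 106 normalized counts in Wt, 122, 132, 124 and 112 in Pkd1-/- and 3, 1, 7 and 3 in Pkd2-/- libraries (-4.80 ± 0.30 in Pkd2-/-, adjusted p = 2.63e-10). Ndrg1, a stress-responsive gene, had 5295 to 5915 normalized counts in Wt, 6953 to 7675 in Pkd1-/- and 275 to 345 in Pkd2-/- libraries (0.36, adjusted p = 2.67e-04, and -4.23, adjusted p = 6.08e-19), where its 14 neighbours had medians of 0.26 and -0.01. P4ha2, a collagen prolyl hydroxylase, fell by 1.67 in Pkd2-/- cells (adjusted p = 2.36e-11).

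Vegfa and Adm were among the 6 that rose in Pkd2-/- cells. Vegfa, the vascular growth factor, rose in the mutants by 0.25 and 0.42 (adjusted p = 0.0185 and 1.34e-04), and Adm, adrenomedullin, rose by 1.16 in Pkd2-/- cells (adjusted p = 2.65e-03), with 22 to 39 normalized counts in Wt and 47 to 100 in Pkd2-/- libraries. Stc2 fell in the mutants from 14 to 38 normalized counts in Wt to 0 to 4 in Pkd1-/- and 0 to 3 in Pkd2-/- libraries (-3.42 and -3.75, adjusted p = 1.14e-04 and 2.15e-05). Arnt2, a partner of the alpha subunits, had 1 to 5 normalized counts in Wt, 21 to 35 in Pkd1-/- and 0 in every Pkd2-/- library (2.85 in Pkd1-/-, adjusted p = 2.40e-05). It was also called lower in Pkd2-/- cells (adjusted p = 5.51e-04), at counts too low for a fold.

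In the neighbouring steps of lactate and glucose use, Slc16a7, which encodes the high-affinity carrier MCT2, had 0, 0, 1 and 2 normalized counts in Wt, 98, 84, 64 and 86 in Pkd1-/- and 0 in every Pkd2-/- library. The ratio of summed counts in Pkd1-/- to Wt was 110.7, with a 95% exact interval of 37.5 to 539 that covers counting error only. Against Pkd2-/- cells the Pkd1-/- mean was at least 27.7-fold higher, taking 3 counts per library as the floor. Ldhd, a mitochondrial D-lactate dehydrogenase, fell from 21 to 32 normalized counts in Wt to 2 to 15 in Pkd1-/- and 3 to 11 in Pkd2-/- libraries (-1.74 and -1.84, adjusted p = 5.75e-03 and 2.18e-03). G6pc3, the widespread glucose-6-phosphatase, fell from 823 to 857 normalized counts in Wt to 121 to 143 in Pkd1-/- and 614 to 676 in Pkd2-/- libraries (-2.69 and -0.41, adjusted p = 3.85e-15 and 1.07e-04).

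Bpgm, which makes 2,3-bisphosphoglycerate, fell by 1.14 in Pkd2-/- cells (adjusted p = 1.56e-11). Pcx, pyruvate carboxylase, rose by 0.44 and 1.01 (adjusted p = 1.17e-05 and 7.75e-11), where its 182 neighbours within 5 Mb on chromosome 19 had medians of 0.20 and 0.25. The low transporter gene Slc2a6 rose in Pkd2-/- cells from 7 to 9 normalized counts in Wt to 15 to 23 (1.29, adjusted p = 1.94e-03), where its 147 neighbours had a median of 0.38. Slc5a1 and Fbp2 also passed, at means under 10 normalized counts, Slc5a1 with 0 to 3 in Wt and 6 to 15 in Pkd1-/- libraries and Fbp2 with 1 to 6 in Wt and 8 to 12 in Pkd2-/- libraries.

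Spread within a genotype was small. Over the 38 members with a mean of at least 10, the median coefficient of variation was 6.01% in Wt, 8.82% in Pkd1-/- and 5.09% in Pkd2-/- cells, and the highest values, up to 55.2%, belonged to members with few counts. Pfkm shares its locus with Senp1, Pfkp with Pitrm1, Tpi1 with Spsb2 and Pfkfb2 with Yod1 on the opposite strand. Slc2a12, listed at 0, overlaps Tbpl1 on the opposite strand (a mean of 1313 normalized counts). Slc2a3, which was near 0, overlaps Gm4482 on the same strand (a mean of 119). Whether counting used strand is not given in the sources used here, and the part of these overlaps in the values was not tested.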

How the data were processed

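The 12 RNA samples of mIMCD3 cells were grouped by genotype from the titles of the samples (4 Wt, 4 Pkd1-/-, 4 Pkd2-/-). The authors trimmed the reads (Trim Galore), mapped them to GRCm38 (HISAT2), counted them by gene (htseq-count) and scaled the counts with DESeq2. These normalized counts are the deposited score values, rounded to whole numbers by the authors, and are not read counts. What 1 read is worth was recovered from whole numbers that are skipped or doubled in a library's column, which gave 23194317 to 30335543 reads per library. GENCODE M21 annotates 47223 of the 47642 genes, 0 sample columns were left unused, and no pair of libraries was identical.

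Genotypes were compared with lmFit and eBayes of limma 3.58.1 (R 4.3.3, variance trend) on log2(normalized count + 1). The fit took all 12 libraries and the 18552 genes that averaged at least 1 normalized count. The two-sided p-values of a comparison were adjusted by Benjamini-Hochberg. Methods for read counts were not used, since rounding hides the exact reads. Isozyme ratios were compared with a two-sided exact permutation test. The fit was tested on simulated data with the same dispersion for every gene and changes of at least 1 on the log2 scale. That run does not cover smaller changes or genes that vary more. Other steps used scipy 1.17.1, matplotlib 3.10.9, pandas 2.3.3 and numpy 2.4.6 under Python 3.11.15.

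The members, the 80 related genes, the markers and the tests were chosen with earlier results of these data known. Members past an adjusted p of 0.05 and a log2 fold change of 1 in either mutant are given in all libraries, and so are those with the next largest changes, up to 16. Of the 80, genes past both thresholds are named, and Vegfa was named after its values were seen. Other settings tried were pseudocounts of 0.5 and 5, a minimum mean of 10 or none, a fit without the variance trend, fits of the compared genotypes alone, scaling to the upper quartile, a replicate block, and leaving out each library. A value of 0 allows up to 3 counts in a library. This limit covers counting error only, as reads were not tagged by molecule. Promoter sequences are from RefSeq (GRCm38.p6).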

Additional observations from a re-analysis of the deposited data

Results flagged for a closer look

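Among 117 groups of 4 libraries (39 tested members in 3 genotypes), 3 held a library far from the other 3, by a gap that takes up more of the group's range than Dixon's 95% critical value, where chance alone gives about 1 in 20, or 5.85 groups. Pkm in Pkd1-/- libraries had 52073 normalized counts in replicate 3 against 46861 in the next library (a gap of 0.9 of the range), the same library that was highest for 13 of 15 glycolytic enzymes. Ldhb in Pkd1-/- libraries had 757 in replicate 1 against 646 in the next (0.933 of the range), all of them below the Wt libraries. Slc2a3 in Pkd2-/- libraries had 1 in replicate 3 against 2 in each of the others (1.0 of the range), a difference of 1 normalized count.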

How the results depend on the processing

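Under 8 settings with all libraries and 12 with a library left out, the members' log2 fold changes kept direction and side of the threshold in 909 and 1342 values, while 11 and 33 lost the call, 8 and 7 gained it and 5 and 22 changed sign. Of the values that changed sign none had passed the test. The number of members past both thresholds in Pkd2-/- against Wt was 8, and 5 with a pseudocount of 5 or without Wt replicate 4 (5 to 9 with a library left out); the members past an adjusted p of 0.05 alone stayed at 25 to 29 in Pkd1-/-, 29 to 32 in Pkd2-/- and 34 between the mutants with a library left out.

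Signs turned for Slc2a3 in Pkd2-/- cells with a pseudocount of 5 (-0.031 against Wt and -0.017 against Pkd1-/-), and with upper quartile scaling for Pdk4 (0.0057) and Pfkfb2 (0.0038) in Pkd1-/- and Pgam1 (-0.047) in Pkd2-/- cells. With a library left out, the log2 fold change against Wt ranged from -0.53 to 0.38 for Slc2a3, -0.14 to 0.14 for Pdk4 and -0.092 to 0.13 for Pfkfb2 in Pkd1-/- cells, and from -0.42 to 0.24 for Slc2a3, -0.014 to 0.030 for Pgam1 and -0.26 to 0.20 for Epas1 in Pkd2-/- cells. Slc2a3 between the mutants ranged from -0.34 to 0.44, and in Pkd2-/- against Wt the log2 ratio of Slc2a3 to Slc2a1 ranged from -0.069 to 0.61 and that of Eno2 to Eno1 from -0.076 to 0.11. The causes were not tested.

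Replicate numbers are shared between genotypes, but the pairing has no support in the labels, and libraries with the same number correlated at -0.073 to 0.20 in their deviations (12 pairs) against -0.20 to 0.11 for different numbers (36 pairs). With the replicate number as a block, 29 members passed the adjusted p in Pkd1-/- and 32 in Pkd2-/- against Wt and 34 between the mutants, and Egln3 in Pkd1-/- cells gained the call (adjusted p = 0.0367). Depth limits Car9, Pdk4, Slc2a3, Slc2a4 and Epas1, which had few counts, and the mutants are 1 clone each.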
